A study of Mus musculus with 15 samples.

Results

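The E2 enzymes of the ubiquitin system were taken as every gene whose symbol begins with Ube2 followed by a letter, which gave 34 of the 20207 genes in the count tables. They were followed in NIH3T3 cells, an established line of mouse embryonic fibroblasts, that stably carried DD-sfGFP. Its destabilizing domain (DD), the L106P mutant of human FKBP12, is joined to superfolder GFP. The DD folds only while its ligand Shield-1 (S1) is bound. After S1 is withdrawn the DD unfolds and is ubiquitylated and degraded, so the series asks how transcript levels change when one unfolded protein appears. The control group (5 libraries, time 0) kept S1 in the medium, and S1 was withdrawn for 45 min (3 libraries), 135 min (3 libraries) or 405 min (4 libraries) before poly(A) RNA was sequenced. All 15 libraries therefore came from the same transgenic cells, made with a PiggyBac vector and sorted for high GFP, and no group lacked the DD protein. Withdrawal was made by adding a purified FKBP(F36V) protein that takes up S1, and the controls differ from the other groups in that addition as well as in the folding of the DD. The study calls the libraries experimental replicates, and no source used here says that those of one group came from separate cultures, so the p-values measure the spread between these libraries, which may be technical.

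An E2 enzyme receives activated ubiquitin from an E1 on the sulphur of a single cysteine and, with an E3 ligase, passes it to a substrate or to a growing chain. The choice of E2 largely sets the kind of chain, since some E2s place the first ubiquitin, others extend chains through lysine 48, which marks proteins for the proteasome, and others build lysine 63 chains used in signalling and DNA repair. A few members carry ubiquitin-like proteins such as NEDD8 and ISG15 in place of ubiquitin. Ube2o is unusual in being a large enzyme that acts as E2 and E3 at once, and it is known for the quality control of misplaced and unassembled proteins.

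Of the members, 6 changed by the test used here, and the active-site stretch of each is shown so that the family's shared feature and its different base composition can be seen together. Each line is 90 bases of coding sequence (GENCODE transcripts for mouse NCBIM37, which is mm9) with the codon of the catalytic cysteine in capitals.
Ube2o: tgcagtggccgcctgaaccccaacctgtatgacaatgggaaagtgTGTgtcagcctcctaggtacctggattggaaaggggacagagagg
Ube2d3: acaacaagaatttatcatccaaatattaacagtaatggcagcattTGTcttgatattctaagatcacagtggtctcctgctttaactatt
Ube2n: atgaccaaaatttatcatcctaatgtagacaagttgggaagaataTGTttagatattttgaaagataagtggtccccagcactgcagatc
Ube2b: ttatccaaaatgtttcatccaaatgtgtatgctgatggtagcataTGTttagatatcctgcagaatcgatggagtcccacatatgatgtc
Ube2g1: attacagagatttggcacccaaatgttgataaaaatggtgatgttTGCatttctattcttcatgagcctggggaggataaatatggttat
Ube2e2: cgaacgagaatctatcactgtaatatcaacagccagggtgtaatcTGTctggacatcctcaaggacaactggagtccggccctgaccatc
The cysteine is codon 1037 in Ube2o, which is 1288 residues long, and lies between codons 85 and 139 in the other 5, which are 147 to 201 residues long. Of the Ube2o stretch 55.6% was G or C, against 32.2% in Ube2d3, 35.6% in Ube2n and in Ube2g1, 37.8% in Ube2b and 50% in Ube2e2, the nearest to Ube2o. Over whole exons the GC content was 58.3% in Ube2o and 39.1% to 46.2% in the other 5. This property of the members is given here because it moved with the libraries, as follows.

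Libraries differed in how their counts depended on base composition. The slope of log2 CPM (counts scaled to a common library size) on exonic GC fell into a steep set of 10 libraries (slopes of -1.42 to -0.67 per 10 points of GC) and a shallow set of 5 libraries (-0.39 to 0.028), divided at the widest gap. The shallow set, called library set 2 below, held control replicate 2, 45 min replicate 3 and 405 min replicates 1, 2 and 4, and set 1 held the rest, including all of the 135 min group. These sets were defined from the data and are in no label, and 3 of 4 libraries at 405 min were in set 2 against 1 of 5 controls. The study's methods describe library preparation by a modified Illumina protocol and also with a NuGEN kit. No source used here says which library was made in which way, and a relation to the sets was not tested. With the set in the model beside the groups, 25 of the 31 tested members differed between sets (19 lower and 6 higher in set 2), as did 50.1% of all tested genes. The sets were made from the GC trend of these same counts, so such differences follow in part from the split. They are given as a description and not as a test. Total counts ran from 6652539 in control replicate 3, which also had the steepest slope, to 30258404 in 45 min replicate 1. All 10 fibroblast markers examined were above 1 RPKM (reads scaled to transcript length and library size) in every library and 13 of 15 markers of other cell types were below 1 RPKM in every library, so the cells carried the transcripts their label calls for. In bulk RNA, fewer cells of a kind and less RNA per cell cannot be told apart.

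Per length, the family was led by Ube2d3. This enzyme, which works with a very wide range of E3s, stood first in the controls with 263 ± 97.8 RPKM (mean ± SD, n = 5), ahead of Ube2n with 78.2 ± 21.6, Ube2l3 with 73.7 ± 12.8, and Ube2s with 64.8 ± 31.6. The lowest Ube2d3 library, at 156 RPKM, was above the highest value of any other member, which was 103 RPKM for Ube2s. Below Ube2d3, neighbours in the order overlapped: Ube2n ranged from 47.3 to 98.2 RPKM and Ube2l3 from 57.8 to 87.3. Ube2o stood at place 27 of 34 in the controls, with 6.11 ± 3.10 RPKM, and at place 13 at 405 min, with 20.8 ± 3.20 RPKM (n = 4). Ube2d3 made up 26% ± 4.5 (SD, n = 5) of the summed RPKM of the family in controls and 17.5% ± 5.5 (n = 4) at 405 min, ranges that overlap at 18.6% to 29.2% and 11.8% to 24.6%. The share of Ube2o lay between 0.246% and 1.12% in controls and between 1.64% and 3.19% at 405 min, without overlap. Together the 34 members held 0.518% ± 0.071 of all counts in controls and 0.421% ± 0.060 at 405 min.

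**Figure D1:**
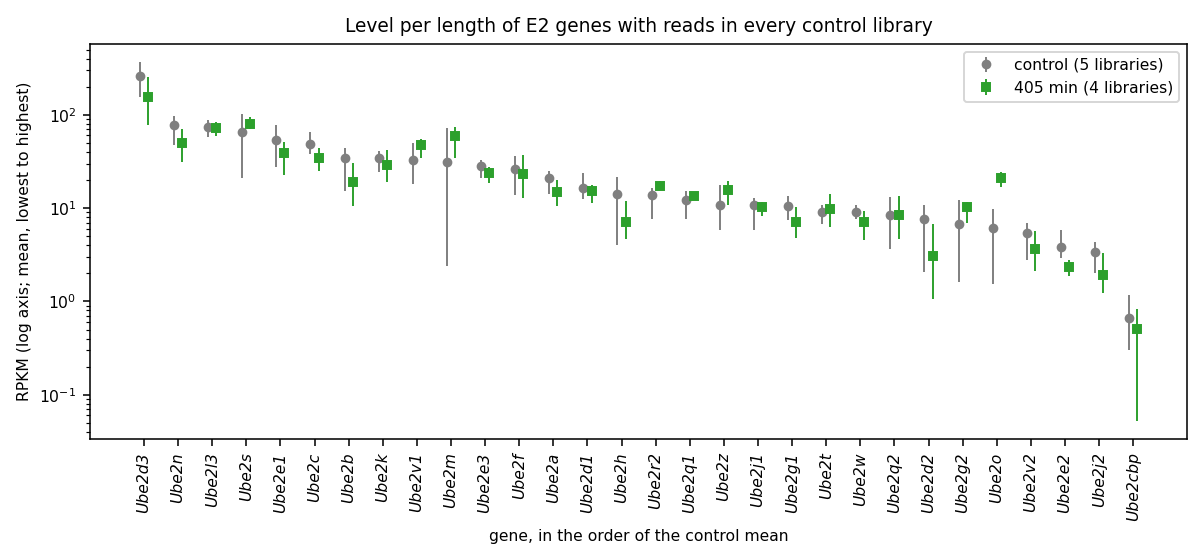
Mean RPKM (log axis) of the plotted E2 genes with reads in every control library, in the order of the control mean, for controls (grey circles, 5 libraries) and 405 min (green squares, 4 libraries), with bars from the lowest to the highest library. Ube2d3 leads at both times. The bars of Ube2o (up to 9.74 RPKM in controls and from 16.8 at 405 min) and of Ube2e2 (from 2.92 in controls) do not overlap between the groups, and those of the other genes do. On the CPM scale the ranges of Ube2e2 overlap.

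The 3 members that were not tested were hardly or not detected. Ube2dnl, related in sequence to the Ube2d enzymes, had 0 counts in all 15 libraries, which allows up to 0.451 CPM in the shallowest library and 0.0991 CPM in the deepest (3 counts, counting error only). Ube2u had 0 to 20 counts per library and was at 0 in 5 of them. Ube2l6, the E2 of the interferon-induced modifier ISG15, had up to 146 counts but 0 in control replicate 3. The other 31 members had at least 1 count in every library and entered the edgeR quasi-likelihood test over all 10276 such genes, from which every adjusted p below comes (Benjamini-Hochberg over all genes) unless another method is named.

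The time course was almost empty for the family at the first point and was carried by Ube2o at the second. At 45 min no member was called in either direction by edgeR, where 0.0% of all tested genes rose and 0.0% fell. At an unadjusted p under 0.05 there were 2 members, Ube2h and Ube2t, both with lower means, beside 3.55% of all genes, and DESeq2 also called 0 members. At 135 min, 1 of 31 members rose (3.23%, beside 0.564% of all genes) and 0 fell (beside 0.895%). DESeq2 called 1 member up (beside 1.57% of all genes) and 1, Ube2c, down (beside 2.62%) at that time, and at an unadjusted p under 0.05 edgeR gave Ube2c and Ube2h as lower. At 405 min, 1 member rose (3.23%, beside 9.99% of all genes) and 5 fell (16.1%, beside 13.4%). The count of falls depended on the fit. DESeq2 called 1 member up (beside 14.0% of all genes) and 14 down (45.2%, beside 19.2%), leaving out control 2 gave 15 down beside 23.9% of all genes, and with the library set as a term 0 fell beside 6.87%. The median log2 fold change was -0.44 over the 31 members and 0.01 over the 9845 tested genes with a GC value. Between 405 and 135 min no member passed by edgeR (2.24% of all genes rose and 2.82% fell), 11 had an unadjusted p under 0.05 (beside 27.6% of all genes), and DESeq2 called 1 up (beside 8.23%) and 4 down (beside 7.0%).

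**Figure D2:**
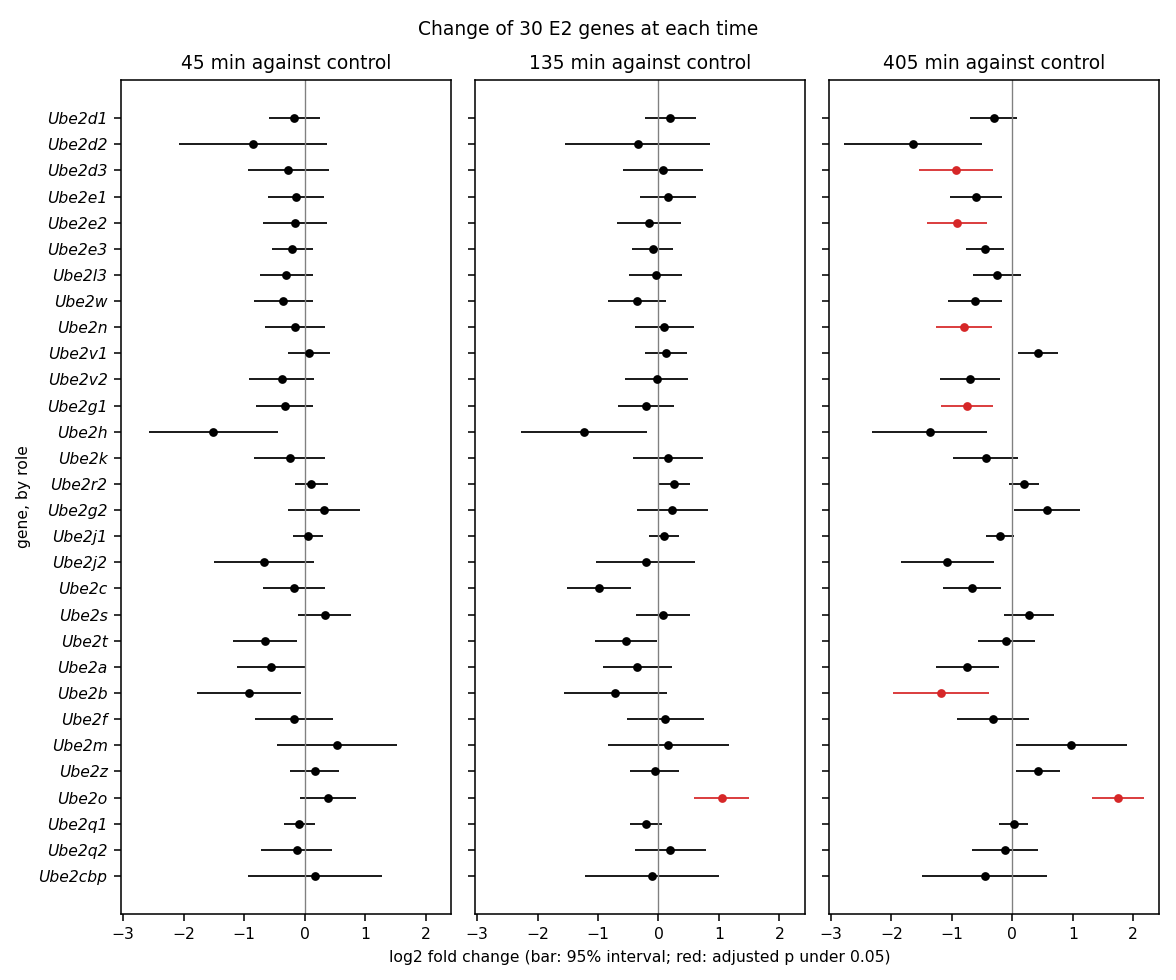
Log2 fold change of 30 tested E2 genes against control at 45, 135 and 405 min, with approximate 95% intervals (1.96 SE) and, in red, the genes with an adjusted p under 0.05. The bars are narrower than intervals of the edgeR test would be. For Ube2b at 45 min the bar (-1.785 to -0.053) leaves out 0, while the unadjusted p of that test is 0.0553. Ube2o is red at 135 and 405 min, and the 5 genes red to the left of 0 at 405 min have log2 fold changes of -0.75 to -1.18.

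Ube2o was higher than in controls at 135 min and at 405 min. On the CPM scale, controls 1 to 5 held 63, 93.8, 32.8, 63.1 and 75.1. The 3 libraries at 45 min held 79.5, 87.3 and 92.0, inside the control range. At 135 min the values were 138, 133 and 136, and at 405 min they were 255, 238, 175 and 216. Every library at 135 min was above every control, and every library at 405 min was above every library at 135 min. The latter also held for Ube2q1. The reverse, all 405 min libraries below all 135 min libraries, held for 8 members: Ube2d1, Ube2d3, Ube2e1, Ube2e2, Ube2e3, Ube2j1, Ube2j2 and Ube2n. The share of all genes was not counted for 405 against 135 min, so these counts are not read as a result about the family. All 135 min libraries were in set 1, while all 405 min libraries but replicate 3 were in set 2. With the set as a term the 8 members had log2 differences of -0.50 (Ube2e2) to -0.05 (Ube2j2), and none of them passed. Not overlapping above the controls held for 4.79% of all genes at 135 min and for 6.75% at 405 min, and Ube2o was the member of which it held at each time. No member lay below all controls at 405 min, as 6.43% of all genes did. The log2 fold change was 0.39 (SE 0.23, adjusted p = 0.698) at 45 min, 1.05 (SE 0.23, adjusted p = 0.036) at 135 min, and 1.75 (SE 0.22, adjusted p = 0.00017) at 405 min, a 3.37-fold rise. By size it was number 96 of the 1027 genes called up at 405 min. The step from 135 to 405 min was 0.71 (SE 0.25, adjusted p = 0.101) and did not pass. It was 0.37 (adjusted p = 0.451) with the library set as a term. With counts offset for each library's GC trend it was 0.17 (adjusted p = 0.566). Within set 1, which has 1 library at 405 min, it was 0.36.

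Ube2o was higher in library set 2 by 0.44 (log2, as a description), so its values were also read within sets. In set 1, controls ran from 32.8 to 75.1 CPM, 135 min libraries from 133 to 138, and the single 405 min library stood at 175. In set 2 the control stood at 93.8, the 45 min library at 92.0, and the 3 libraries at 405 min ran from 216 to 255. The difference at 405 min was 1.57 (log2) in set 1 and 1.32 in set 2. Each of these rests on an arm of 1 library, so no p is given for them. With the set as a term the changes were 1.15 at 135 min (adjusted p = 0.0017) and 1.52 at 405 min (adjusted p = 9.05e-05). In that fit 3.06% of all genes rose at 135 min. The call at 135 min was lost, with an adjusted p of 0.163, when replicate numbers were put in as a block. It was also lost when controls 1, 4 or 5, 45 min replicates 1 or 2, any 135 min replicate, or 405 min replicates 2 or 4 were left out singly, 10 of the 15 libraries, with log2 fold changes of 0.89 to 1.21. Within set 1 alone it was 1.21 (adjusted p = 0.014). The gene lies on chr11:116399067-116442761 of mm9, on the minus strand, and its coding sequence had no other copy in that genome at 90% identity over 80% of its length.

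**Figure D3:**
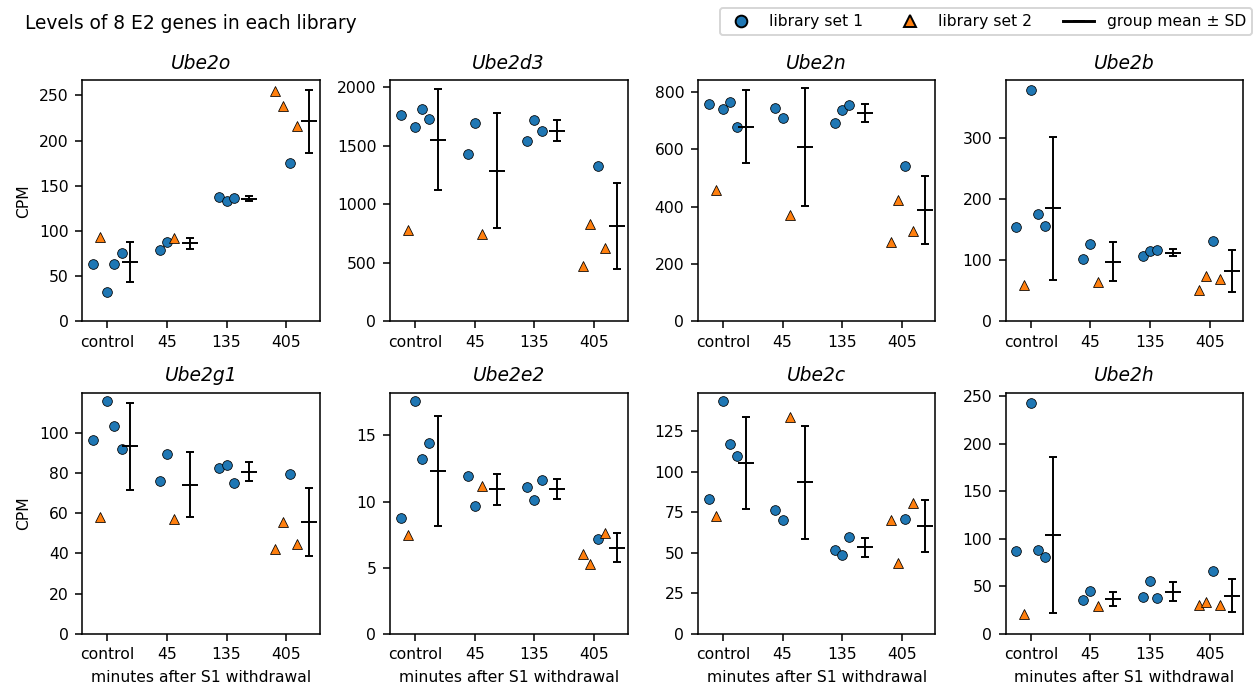
CPM of 8 E2 genes in each library by time after S1 withdrawal, with blue circles for library set 1, orange triangles for set 2 and a black bar for the group mean ± SD. Ube2o climbs to 175 to 255 CPM at 405 min in both sets, whereas for Ube2d3, Ube2n, Ube2b and Ube2g1 the set 2 libraries lie below set 1 also in the control and 45 min groups.

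The 8 tested enzymes grouped here as initiating, Ube2l3 among them, all had negative log2 fold changes at 405 min, from -1.64 to -0.25. Of the 8, 2 passed by edgeR. Among all tested genes 50.1% were negative. The exons of the 8 held 38.2% to 46.3% GC, and of 2631 tested genes under 45% GC only 618 had a positive change. The direction of Ube2l3 turned with the set as a term (0.06), that of Ube2d1 with the GC offset (0.08), and those of both within set 2 (0.37 and 0.33). Ube2d3 (chr3:135101723-135130142) held 1764, 784, 1661, 1815 and 1731 CPM in controls 1 to 5 and 477, 831, 1326 and 622 at 405 min. Control replicate 2 lay within the range of the 405 min group, while the other 4 controls lay above it. Its log2 fold change was -0.93 (SE 0.32, adjusted p = 0.045), and -0.35 (adjusted p = 0.138) with the library set as a term. Its coding sequence has 8 further copies in the genome, so the reads of Ube2d3 could be split among them and its level is uncertain. Ube2e2 (chr14:19406091-19726141), a member of the nuclear-imported Ube2e group, held 8.74, 7.46, 17.6, 13.2 and 14.5 CPM in controls and 6.01, 5.25, 7.15 and 7.64 at 405 min. Its ranges overlapped through control replicate 2 alone, and on the RPKM scale they did not overlap (2.92 to 5.88 in controls, 1.88 to 2.78 at 405 min). RPKM was not brought to one scale between libraries, and its sum ran from 159763 (control replicate 3) to 312664 (45 min replicate 1). The share of all genes without overlap in RPKM was not counted. Ube2e2 rested on 74 to 358 counts per library, and changed by -0.91 (SE 0.25, adjusted p = 0.022) and by -0.70 (adjusted p = 0.106) with the set as a term. Between sets Ube2e2 differed by -0.33 (log2, as a description), the smallest set difference among the 5 genes that fell.

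The other initiating enzymes did not pass by edgeR at 405 min, while DESeq2 called Ube2d2, Ube2e1, Ube2e3 and Ube2w as lower and the GC-offset fit called Ube2d2. Ube2l3, which serves HECT and RING-between-RING ligases, ranged from 280 to 680 CPM in controls and from 333 to 439 at 405 min (log2 -0.25, SE 0.20). Ube2e1 had 120 to 194 CPM in controls and 72.3 to 144 at 405 min (log2 -0.60, SE 0.22, adjusted p = 0.061). The rest of the group, Ube2d1, Ube2d2, Ube2e3 and Ube2w, had log2 fold changes of -1.64 to -0.31, with Ube2d2, of which 3 further copies were found, at the low end (SE 0.58, adjusted p = 0.054).

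Ube2n builds lysine 63 chains when paired with Ube2v1 or Ube2v2, which have the E2 fold but lack the cysteine. Ube2n (chr10:94977796-95008292) held 758, 457, 741, 764 and 677 CPM in controls and 278, 424, 540 and 316 at 405 min. Again control replicate 2 lay inside the 405 min range and the other controls above it. The change was -0.80 (SE 0.24, adjusted p = 0.027). With the set as a term it was -0.39 (adjusted p = 0.064), and the single 405 min library of set 1, at 540 CPM, was below the 4 controls of that set, the lowest of which was 677. Ube2v1 ranged from 105 to 181 CPM in controls and from 137 to 227 at 405 min (log2 0.42, SE 0.17, adjusted p = 0.073). Ube2v2 ranged from 41.0 to 87.4 and from 29.1 to 66.8 CPM (log2 -0.70, SE 0.25, adjusted p = 0.055). Their exons differ in composition, at 54.1% GC in Ube2v1 and 35.0% in Ube2v2, and their coding copies elsewhere number 6 and 5, beside 4 for Ube2n.

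Among the 4 enzymes grouped as makers of lysine 48 chains, Ube2g1 fell and the others did not pass by edgeR, while DESeq2 (adjusted p = 0.015) and the GC-offset fit (adjusted p = 0.045) also called Ube2h as lower at 405 min. Ube2g1 (chr11:72420763-72499983), which extends chains on substrates of cullin ligases, held 96.6, 58.2, 116, 104 and 92.0 CPM in controls and 42.4, 55.5, 79.4 and 44.6 at 405 min. The change was -0.75 (SE 0.22, adjusted p = 0.028), and -0.37 (adjusted p = 0.081) with the set as a term. Ube2k had 219 to 501 CPM in controls and 217 to 414 at 405 min (log2 -0.44, SE 0.27). Ube2r2, a Cdc34 type enzyme of SCF ligases, had 78.0 to 116 and 108 to 121 CPM (log2 0.19, SE 0.13), with an approximate 95% interval of -0.06 to 0.43. Ube2h, the E2 of the CTLH ligase, was uneven in controls, with 87.2, 21.0, 243, 88.5 and 81.4 CPM. At 45 min it held 35.3, 44.8 and 29.5, at 135 min 38.8, 56.0 and 37.9, and at 405 min 30.5, 33.5, 66.5 and 30.8. All controls but replicate 2 were above all 10 later libraries. Within set 1 the log2 fold change of Ube2h at 135 min was -1.48 (SE 0.37, adjusted p = 0.047), in the whole table it was -1.23 (SE 0.53, adjusted p = 0.368), and in set 2, which has 1 control, its direction at 405 min was the opposite, at 0.58.

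The Rad6 enzymes Ube2a and Ube2b, which act with Rad18 on PCNA and with Rnf20 and Rnf40 on histone H2B, both had negative log2 fold changes at 405 min, and Ube2b passed. Ube2b (chr11:51798649-51813968) held 155, 60.2, 378, 176 and 156 CPM in controls and 51.8, 73.7, 131 and 70.0 at 405 min. Control replicate 3, the shallowest library, stood far above the other controls. The log2 fold change was -1.18 (SE 0.40, adjusted p = 0.047), and -0.45 (adjusted p = 0.356) with the set as a term. Within set 2 the direction turned, to 0.11, with the control at 60.2 CPM and the 405 min libraries between 51.8 and 73.7. Ube2a ranged from 44.1 to 132 CPM in controls and from 40.8 to 67 at 405 min (log2 -0.74, SE 0.27, adjusted p = 0.055), with a change of -0.25 (adjusted p = 0.399) with the set as a term and 0.02 within set 2.

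The 5 falls at 405 min also differed in how many single libraries they rested on. Ube2e2 was no longer called without 405 min replicate 1 or 2. Ube2n was not called without control 1 or 4 or without 405 min replicate 1, 2 or 4, and Ube2g1 without any of those or control 3. Ube2d3 kept its call only without control 2, 45 min replicate 2 or 3, or 405 min replicate 3, and Ube2b only without control 2, 45 min replicate 3 or 405 min replicate 3. All 5 changes stayed negative when any single library was left out, from -0.78 to -1.05 for Ube2e2, -0.67 to -1.0 for Ube2n, -0.64 to -0.97 for Ube2g1, -0.74 to -1.27 for Ube2d3 and -0.77 to -1.50 for Ube2b.

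**Figure D4:**
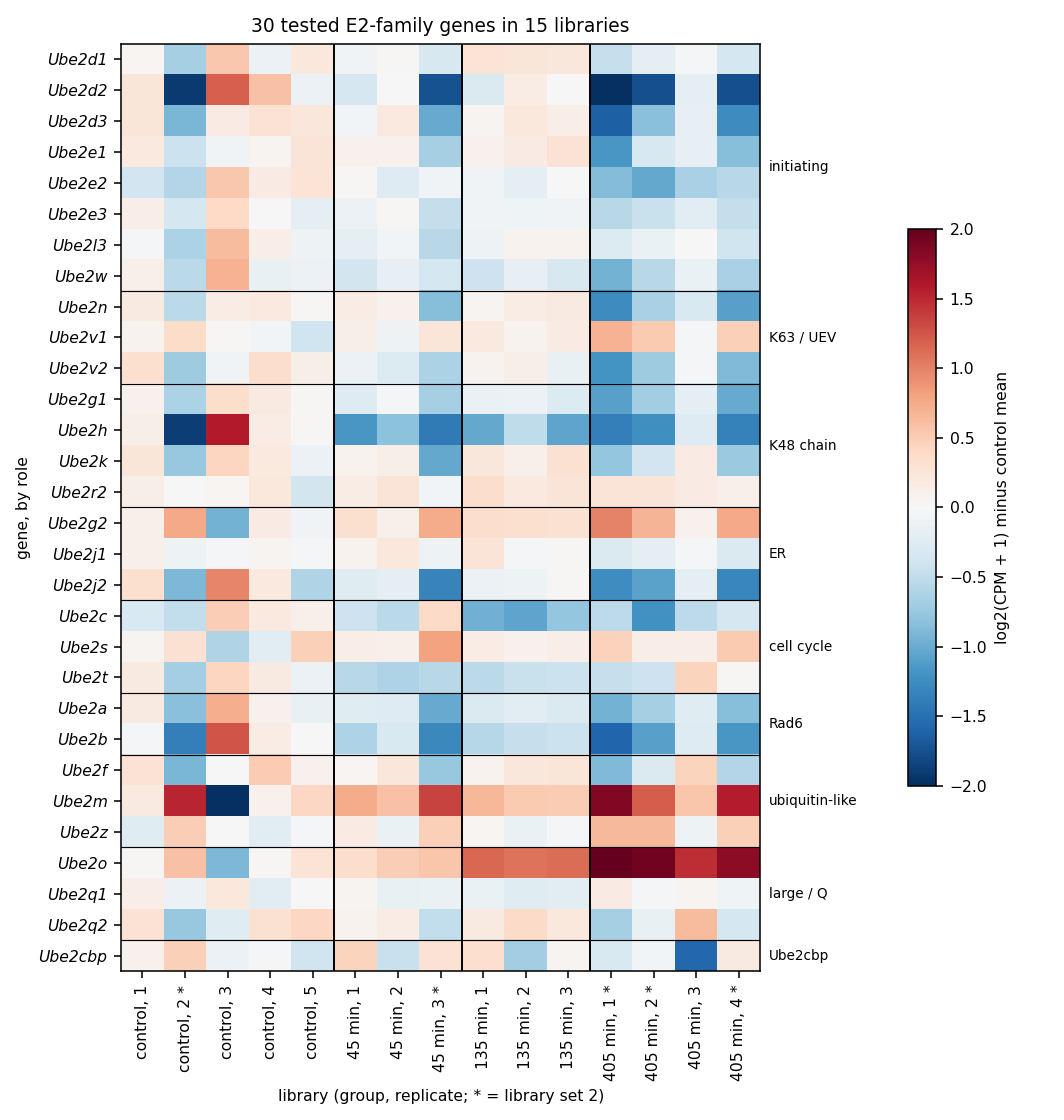
Difference of each library from the control mean on the log2(CPM + 1) scale for 30 tested E2 genes in rows, grouped by role, and the 15 libraries in columns, with an asterisk on the 5 libraries of set 2. The columns with an asterisk share a pattern in every group that has one, blue for Ube2d2, Ube2d3 and Ube2b and red for Ube2m and Ube2g2, while the Ube2o row is red in all 7 libraries from 135 min on.

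The E2s of the endoplasmic reticulum, which serve the degradation of misfolded secretory proteins, gave no call by edgeR at any time, while Ube2j2 was called as lower at 405 min by DESeq2 (adjusted p = 0.022) and in the GC-offset fit (adjusted p = 0.049). Ube2j1, a membrane-anchored enzyme, varied little, with 77.5 to 89.9 CPM in controls and 68.0 to 81.6 at 405 min (log2 -0.20, SE 0.12). Its partner in the same process Ube2g2 had 13.1 to 45.0 and 27.6 to 53.1 CPM (log2 0.58, SE 0.28, adjusted p = 0.129). Ube2j2 had 12.5 to 48.5 and 9.24 to 21.1 CPM (log2 -1.08, SE 0.39, adjusted p = 0.058).

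Of the cell cycle enzymes, Ube2c was low at 135 min. Ube2c starts and Ube2s extends the lysine 11 chains that the anaphase-promoting complex places on cyclin B, and Ube2t works in the Fanconi anaemia pathway. Ube2c held 83.0, 72.7, 144, 117 and 110 CPM in controls, 76.3, 70.2 and 134 at 45 min, 51.9, 48.5 and 59.6 at 135 min, and 70.6, 43.7, 70.7 and 81.0 at 405 min. The 135 min libraries were below all controls, as was so for 4.75% of all genes, and Ube2c was the member of which it held. The log2 fold change was -0.98 (SE 0.27, adjusted p = 0.109), which did not pass. It passed with the library set as a term (-0.97, adjusted p = 0.034, where 4.88% of all genes fell), within set 1 (-1.08, adjusted p = 0.0091) and by DESeq2 (adjusted p = 0.019). At 405 min it was -0.66 (SE 0.24, adjusted p = 0.060). Ube2s, its partner, ranged from 85.1 to 181 CPM in controls and from 137 to 144 at 135 min (log2 0.07, SE 0.23). Ube2t held 25.3, 13.5, 30.3, 25.2 and 20.3 CPM in controls and 15 to 16.3 at 135 min (log2 -0.54, SE 0.27, adjusted p = 0.452). Among 19 other mitotic genes of a fixed list, 0 were called by edgeR at 135 min, where 0.564% of all genes rose and 0.895% fell. With the set as a term 1, Ccnb1, the gene of cyclin B1, was called as lower (beside 4.88% of all genes). At 405 min Birc5, a subunit of the chromosomal passenger complex, fell by 0.35 (adjusted p = 0.043) and 0 of the list rose. Of all genes 13.4% fell and 9.99% rose at that time. With the set as a term the change of Birc5 was -0.29 (adjusted p = 0.115), which did not pass. The summed CPM of the list ran from 3750 to 7522 in controls and from 5108 to 5379 at 135 min.

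The promoter of Ube2c, chosen after its values were seen, is shown as a description. It holds letter matches to 2 sequences known from genes of late cell cycle phases, and a link of these matches to the level of Ube2c was not tested. The stretch shown is the 250 bases before the RefSeq start on GRCm38.p6 (chr2:164769679-164769928, plus strand), with matches to CCAAT and to TTTGAA, the cell cycle genes homology region, on either strand in capitals.
Ube2c promoter: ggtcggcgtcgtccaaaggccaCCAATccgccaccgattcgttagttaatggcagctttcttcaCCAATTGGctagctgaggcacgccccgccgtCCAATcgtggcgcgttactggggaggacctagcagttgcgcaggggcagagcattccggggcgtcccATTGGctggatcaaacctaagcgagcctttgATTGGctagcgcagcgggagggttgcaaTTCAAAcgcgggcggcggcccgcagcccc
Of 32851 promoters of 300 bases, 17.9% held TTTGAA and 37.4% held CCAAT on either strand. Of the 26 members with a promoter in the table, 3 held TTTGAA (Ube2c, Ube2f and Ube2z) and 7 held CCAAT (Ube2c, Ube2d3, Ube2e1, Ube2f, Ube2l3, Ube2t and Ube2u). The antioxidant response core TGACNNNGC was in 5 members (12.4% of all promoters), and the heat shock core GAANNTTC in 0 (7.86%). These are matches of letters and not sites.

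The E2s described here for ubiquitin-like proteins were not called by edgeR or DESeq2 at any time. With controls 2 and 3 both left out, a setting chosen after seeing the data, Ube2m (1.12, adjusted p = 0.0047) and Ube2z (0.58, adjusted p = 0.019) were called up at 405 min by edgeR. In that fit 23.5% of all genes rose. The NEDD8 enzymes differed in sign, with Ube2m at 0.98 (SE 0.47, adjusted p = 0.129) and Ube2f at -0.32 (SE 0.30). Ube2m (59.6% GC) varied widely, and controls 1 to 5 held 62.0, 159, 11.3, 58.0 and 73.1 CPM, and the 405 min libraries 201, 128, 81.2 and 164. The highest control was replicate 2, of set 2, and the lowest was replicate 3. Ube2z, which takes ubiquitin or FAT10 from Uba6, had 78.0 to 130 and 86.7 to 146 CPM (log2 0.43, SE 0.19, adjusted p = 0.104). The 2 Q-type enzymes grouped with Ube2o by their size were near no change at 405 min, Ube2q1 at 0.02 (SE 0.12) and Ube2q2 at -0.12 (SE 0.28). The approximate 95% interval of Ube2q1, -0.22 to 0.26, lay below the change of Ube2o. Ube2cbp, which is matched by its symbol but encodes a protein that binds Ube2c, had 0.2 to 4.0 CPM and a log2 fold change of -0.46 (SE 0.53).

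Across the 31 members the change at 405 min followed base composition. Spearman's rho between log2 fold change and exonic GC was 0.62 over the members and 0.46 over the 9845 tested genes with a GC value, given as a description since the genes share their libraries and are not independent. None of the 12 members under 45% GC had a positive change, and 7 of the 10 members with 50% GC or more did. Over all tested genes a positive change was found in 618 of 2631 under 45% GC and in 3138 of 4426 with 50% or more. With the library set as a term, rho was 0.42 over the members and the count of calls was 1 up (beside 6.17% of all genes) and 0 down (beside 6.87%). With counts offset for each library's GC trend, rho was 0.18, and Ube2o rose by 1.25 (adjusted p = 0.00014). In that fit 1 member rose (beside 12.8% of all genes) and 6 fell (19.4%, beside 13.3%), namely Ube2c, Ube2d2, Ube2e2, Ube2g1, Ube2h and Ube2j2. Ube2e2 and Ube2g1 are the genes called as lower by both the fit on groups alone and the GC-offset fit. The part of the library set in the 5 falls was not tested beyond these values.

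**Figure D5:**
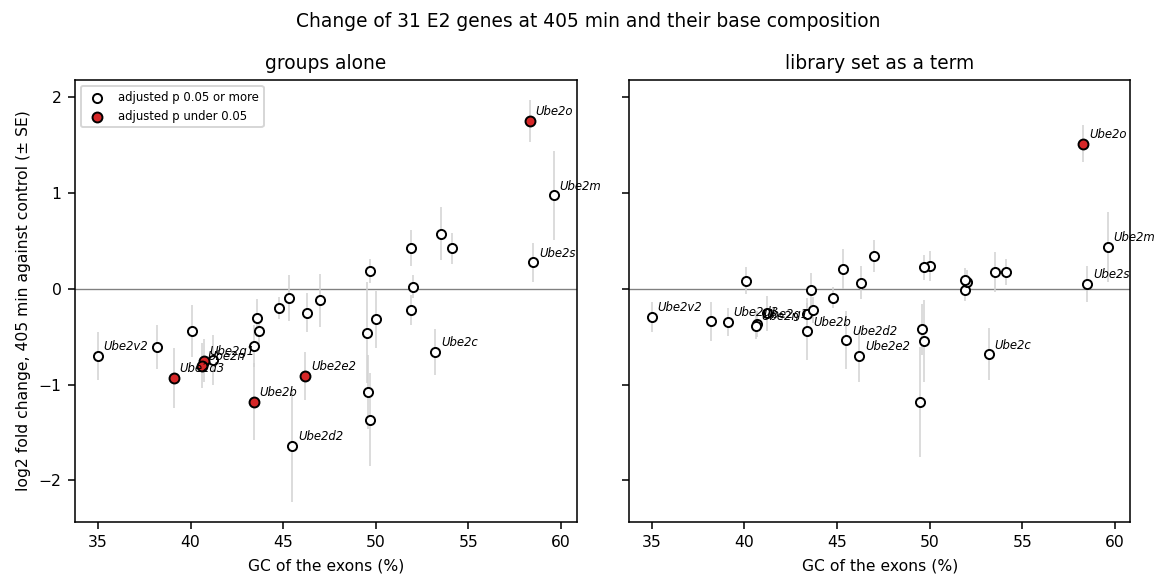
Log2 fold change (± SE) at 405 min against the GC content of the exons for the 31 E2 genes, from the fit on groups alone (left) and with library set as a term (right), with genes called in red. On the left the points rise with GC and 6 are red, and on the right Ube2o alone is red, at 1.52.

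Elsewhere in the pathway, other genes rose with Ube2o. The lists were chosen with earlier results known and partly from genes the study names as raised by the unfolded DD in these data. Among the modifier genes, Ubb, which encodes a chain of ubiquitin units, ranged from 142 to 213 CPM in controls and from 345 to 498 at 405 min (log2 1.39, SE 0.16, adjusted p = 0.00013). Urm1, a ubiquitin-like modifier, rose by 1.40 (adjusted p = 0.0027). Both kept their calls with the library set as a term, while the fall of Sumo2 (-0.84, adjusted p = 0.022) did not. Of 8 E1 genes, the SUMO E1 subunit Uba2 fell (-0.67, adjusted p = 0.018, and 0.0908 with the library set as a term) and 0 rose. Among 8 E2 enzymes with other names, 3 rose and 1 fell, where 9.99% of all genes rose and 13.4% fell. Cdc34, the SCF enzyme related to Ube2r2, rose by 1.22 (adjusted p = 0.017), Ufc1 by 0.76 (adjusted p = 0.016), and Birc6, which like Ube2o is a very large E2 with ligase activity, by 0.52 (adjusted p = 0.015), with 299 to 392 CPM in controls and 453 to 587 at 405 min. Atg3, the E2-like enzyme of autophagy, fell by 1.12 (adjusted p = 0.0057). With the set as a term, Birc6 (0.52, adjusted p = 0.018), Cdc34 and Atg3 were called in the same directions and Ufc1 was not (adjusted p = 0.051). Of 50 tested ligases and E2 partners, 15 rose and 4 fell, beside the same shares of all genes. The largest changes were those of Keap1 (1.68), Ubr4 (1.57), Ube4b (1.5), Mdm2 (1.21) and Ube4a (1.21). With the set as a term 10 rose, those 5 among them, and 0 fell, where 6.17% of all genes rose and 6.87% fell. The study names all 5, and others of this list, as raised by the unfolded DD. The counts were therefore in part fixed in advance and are a description only.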

How the data were processed

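Poly(A) RNA of 15 libraries had been sequenced on a HiSeq2000 and mapped by the authors to mm9 with RefSeq genes. The deposited tables give, per gene, an estimated count, which is not whole for 8.7% to 15.6% of genes, made by the authors on the DNAnexus platform. The authors also deposited RPKM per gene, used here for levels between genes. The authors deposited with these a score, the Z-score of the RPKM values, and a ratio of RPKM to its root mean square, which could be recomputed from the RPKM column to within 0.0113 and 0.000966 and were not used further. The aligner, and whether reads were counted by strand, are not given in the sources used here.

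Counts were rounded, genes with at least 1 count in every library were kept (10276), and edgeR 4.0.16 (R 4.3.3) quasi-likelihood tests were fitted over all 15 libraries with TMM scaling and 1 term per group, as the study's methods use edgeR, with Benjamini-Hochberg adjustment and a threshold of 0.05. Alternatives were DESeq2 1.42.0 (Wald test), size factors of DESeq2, no filter, the compared groups alone, replicate numbers as a block, library set as a term, each set alone, a GC offset, and leaving out libraries. The design had assumed whole counts. The test was run before use on simulated counts with the mean levels and depths of these libraries. That simulation had a smaller spread than the main fit estimated (common dispersion 0.102) and no difference between library sets. It therefore does not show how the test performs on these data. Coordinates are those of the tables, the same in all 15 files for the 34 members. Coding copies were sought with BLAST 2.17.0. Promoters come from RefSeq on GRCm38.p6. Some items, 1 member among them, are not reported here. The other members are described, with values in each library where a call was made, and otherwise up to 3 per role by mean CPM, in addition to Ube2c, Ube2h, Ube2m and Ube2t, which were chosen after their values were seen. Members, lists and tests were chosen with earlier results of these data known. No protein sequence was used here.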

Additional observations from a re-analysis of the deposited data

Results flagged for a closer look

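In 5 of 62 sets of values examined (31 members in the controls and at 405 min), one library stood apart by Dixon's ratio of the gap to its neighbour over the range, where chance alone gives about 1 in 20. For Ube2d3 the control replicate 2, at 784 CPM, lay below the next control at 1661 (ratio 0.851), and for Ube2n the same library, at 457 CPM, lay below the next at 677 (ratio 0.715). It is the one control in library set 2. At 405 min the library apart was replicate 3, the one in set 1. It was the highest for Ube2h, with 66.5 CPM against 33.5 for the next library (ratio 0.915), for Ube2j2, with 21.1 against 11 (ratio 0.849), and for Ube2d2, with 34.0 against 10.7 (ratio 0.837). The part of the library set in these values was not tested.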

How the results depend on the processing

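At 45 min the counts of members called stayed at 0 up and 0 down under all alternatives. At 405 min Ube2o rose under all 28 alternatives, with log2 fold changes of 1.25 to 1.91 and adjusted p-values up to 0.025 (within a single set each comparison rests on an arm of 1 library). Members up at 135 min were 0 without the filter, with the compared groups alone and with the replicate block, and 0 to 1 when 1 library was left out. Of all genes, 0.163%, 0.154% and 0.107% rose in those fits, in the order given, and 0.194% to 1.12% with 1 library left out. Members down at 135 min were 1 with DESeq2, with set as a term and with block and set together, 2 within set 1, 3 with set as a term and control 3 left out, and 0 to 1 with 1 library left out (1, Ube2c, without control 2). Of all genes, 2.62%, 4.88%, 3.76%, 3.48%, 5.68% and 1.77% fell at 135 min in those fits, in the order given. At 405 min, 5 members rose with controls 2 and 3 both left out (beside 23.5% of all genes). With 1 library left out, 1 to 5 rose (5 without control 2, beside 24.5%, and 3 without 405 min replicate 3, beside 14.6%). Members down at 405 min were 14 with DESeq2 and with controls 2 and 3 both left out, 3 without the filter, 1 with block and set together, with block and GC offset together and with set as a term and control 3 left out, and 0 with the compared groups alone, the replicate block, set as a term, within set 1 and within set 2. Of all genes, 19.2% fell with DESeq2, 20.9% with controls 2 and 3 both left out, 5.16% without the filter, 6.23% with block and set together, 7.82% with block and GC offset together, 4.48% with the compared groups alone, 4.54% with the block, 6.87% with set as a term, and 0.907% and 1.87% within sets 1 and 2. With 1 library left out the members down ran from 0 to 15. There were 0 without 405 min replicate 1 or 2, 1 without control 1, control 4 or 405 min replicate 4, 2 without control 3, 3 without 45 min replicate 1 or any 135 min replicate, 11 without 45 min replicate 3, 13 without 405 min replicate 3 (beside 19.9% of all genes) and 15 without control 2 (beside 23.9%). From 135 to 405 min, members up were 1 with DESeq2 and with the compared groups alone, 2 in both fits that dropped control 3, and 0 to 1 with 1 library left out. Of all genes, 8.23% rose with DESeq2, 15.4% with the compared groups alone, and 0.185% to 7.34% with 1 library left out. In the fits that dropped control 3, 14.2% rose (control 2 also left out) and 5.38% (set as a term). Members down were 4 with DESeq2, 6 with the compared groups alone and with controls 2 and 3 both left out, 2 with the GC offset, and 0 to 6 with 1 library left out. Of all genes, 7.0%, 10.9%, 10.6% and 4.18% fell in those fits, in the order given, and 0.224% to 6.03% with 1 library left out. Within set 2, which has 1 control, the direction at 405 min turned for 9 members, among them Ube2b (0.11) and Ube2h (0.58), with values of 0.02 to 0.58. The alternatives that left out control 3 with another library or with the set were chosen after seeing the data, and the causes of these shifts were not tested.

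Deviations from the group means correlated at -0.11 on average in the 19 pairs of libraries with the same replicate number (from -0.706 to 0.437). In pairs with different numbers the average was 0.028 (from -0.83 to 0.757). The library set was not taken out of these deviations, so whether the numbers pair the libraries cannot be told from them. The replicate block left 1 up (Ube2o, 1.84) and 0 down at 405 min. The 135 min group lies in set 1 as a whole, so it has no value within set 2. At 74 to 358 counts per library, Ube2e2 is the called member with the least depth.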
